A study of Mus musculus with 7 samples.

Results

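The genes described here encode the 5 lysyl oxidases of the mouse (Lox and Loxl1 to Loxl4) and 5 enzymes that modify collagen chains inside the cell (Plod1, Plod2, P3h2, Colgalt1, and Colgalt2). These 10 genes, of 55401 in the count table, were taken by their exact gene names. They were chosen by values of the same WT against Trpc1-/- comparison, so that comparison is a description of them, and their calls in the fits over all genes are no independent evidence. RNA-Seq was performed on the right knees of male C57BL/6J mice that underwent destabilization of the medial meniscus (DMM), a surgical model of posttraumatic osteoarthritis, at 10 weeks of age and were collected 2 weeks later. The 4 WT samples carry both intact copies of Trpc1, the gene for a calcium-permeable channel. The 3 Trpc1-/- samples come from mice in which an exon encoding part of the transmembrane region is deleted in every cell, so the deletion is not restricted to cartilage. Every sample pooled RNA from 2 to 3 mice, and all 7 had been operated, so no sham or unoperated knee enters any value. The labels call the tissue knee articular cartilage, whereas the study's methods also list subchondral bone. The labels give 4 WT and 3 Trpc1-/- samples, the methods give these numbers the other way around, and the labels were used.

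Collagen matures in steps. In the endoplasmic reticulum, lysyl hydroxylases (Plod genes) turn chosen lysines into hydroxylysines, the galactosyltransferases Colgalt1 and Colgalt2 attach galactose to some of these hydroxylysines, and prolyl 3-hydroxylases such as P3h2 modify single prolines. After secretion and fibril assembly, lysyl oxidases, copper-dependent enzymes, oxidize lysines and hydroxylysines of collagen and elastin to aldehydes, from which the cross-links that give cartilage and bone their tensile strength form. Whether a lysine was hydroxylated beforehand decides which type of cross-link can form.

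The lysyl oxidases share a catalytic domain whose copper ion is held by histidines. The coding sequence around these histidines is shown for the 4 LOX-like genes because it holds the conserved core of the enzyme, where relatives are alike in sequence. Every codon of histidine in the motif searched is in capitals, which does not mean that each of these histidines binds copper. Each sequence holds 69 bases on the coding strand. All come from GENCODE M21 transcripts on GRCm38, with coordinates that include the intron crossed by each stretch.
Loxl1 (chr9:58293702-58294399, minus strand, exons 3 and 4): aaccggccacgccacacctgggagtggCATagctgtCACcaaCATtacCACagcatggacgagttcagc
Loxl2 (chr14:69682298-69689055, plus strand, exons 10 and 11): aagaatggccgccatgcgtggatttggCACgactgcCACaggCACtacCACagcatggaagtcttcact
Loxl3 (chr6:83049977-83050143, plus strand, exons 10 and 11): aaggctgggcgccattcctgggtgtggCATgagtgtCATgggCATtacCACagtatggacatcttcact
Loxl4 (chr19:42598789-42599917, minus strand, exons 11 and 12): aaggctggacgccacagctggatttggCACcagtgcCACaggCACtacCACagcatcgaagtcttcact
Over this stretch Loxl2 and Loxl4 shared 59 of 69 bases (85.5%), the highest identity of the 6 pairs. Loxl3 shared 53 bases (76.8%) with each of them, and Loxl1 was the most distant, with identities of 62.3% to 66.7%. Their coding sequences as a whole are 1821 bp long in Loxl1 and 2328, 2262, and 2271 bp long in Loxl2, Loxl3, and Loxl4. How reads matching more than 1 relative were assigned is not given in the sources used here.

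The counts on genes summed to between 52142451 (WT replicate 1) and 118254070 (Trpc1-/- replicate 1), so that 3 counts, taken as the floor of detection, corresponded to 0.0254 to 0.0575 CPM (counts brought to a common library size, scaled by TMM). The lowest of the 10 genes, P3h2, had 918 counts or more in every sample. Trpc1 itself was measured at 4.82, 4.54, 4.76, and 4.32 CPM in the WT samples and at 3.34, 3.78, and 3.03 CPM in the Trpc1-/- samples. The groups did not overlap, but counts over the whole gene do not separate the deleted exon from the rest of the transcript. Cartilage markers such as Col2a1 were abundant, and none of the marker genes examined for 9 cell types was at 0, including those of bone, bone marrow, and muscle. In bulk tissue of this kind, fewer cells of a type and less RNA per cell cannot be told apart.

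All 10 enzyme genes passed the filter on low counts (over 1 CPM in at least 2 samples), and all 10 had lower levels in the Trpc1-/- samples. Their log2 fold changes (logFC, Trpc1-/- over WT) ran from -0.77 in Loxl4 to -0.09 in Colgalt1, with a median of -0.45. Over all 16429 genes that passed the filter, the median logFC was -0.0088, and 8525 genes (51.9%) were lower. In 6 of the 10 (Lox, Loxl2, Loxl3, Loxl4, P3h2, and Colgalt2), every Trpc1-/- sample lay below every WT sample, and no gene of the 10 showed the opposite. Among all genes tested, 6.42% were separated in this downward way and 7.15% upward.

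With Benjamini-Hochberg adjustment over all tested genes, the quasi-likelihood test in edgeR called none of the 10 at an adjusted p of 0.05, and no other gene either (0 of 16429, 0%). At an unadjusted p under 0.05, edgeR placed 8 of the 10 lower, all but Plod2 and Colgalt1, against 5.49% of all genes lower and 4.51% higher. DESeq2, the tool used in the study, called the 6 separated genes lower, against 0.828% of all genes lower and 0.962% higher. Because the members were chosen by this contrast, nothing is read from these shares. The DESeq2 count moved with single samples, as did the 136 genes it called lower over the whole table. It was 1 (Lox) without WT replicate 2, Trpc1-/- replicate 1, or Trpc1-/- replicate 3, where 24, 37, and 14 genes were called lower in all, and 2 (Lox and P3h2) of 45 without WT replicate 3. Without WT replicate 4 it was 8 of 181. Without WT replicate 1 it was the same 6, of 372. Without Trpc1-/- replicate 2 it was 6 of 202, with Plod2 in place of Loxl2.

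**Figure D1:**
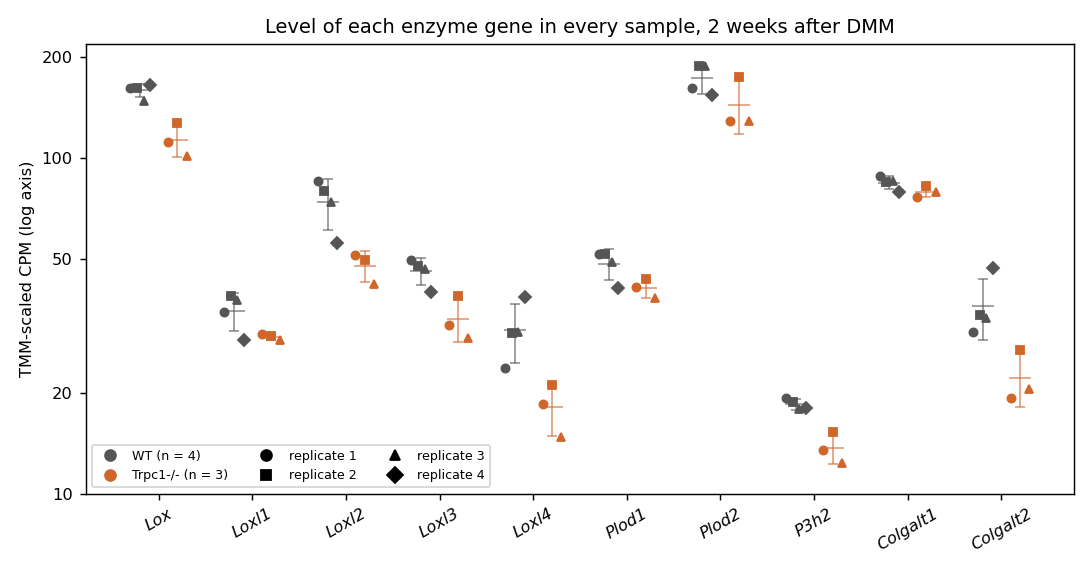
TMM-scaled CPM (log axis) of each of the 10 enzyme genes in the 4 WT samples (grey) and the 3 Trpc1-/- samples (orange), with the marker shape giving the replicate and the bars giving the mean ± SD of each group. Lox, Loxl2, Loxl3, Loxl4, P3h2, and Colgalt2 have all 3 Trpc1-/- points below all 4 WT points, whereas the groups overlap in Loxl1, Plod1, Plod2, and Colgalt1.

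Lox, the founding lysyl oxidase and a main cross-linker of fibrillar collagen and elastin, was among the most abundant of the 10. It was measured at 162, 162, 148, and 166 CPM in WT replicates 1 to 4 and at 112, 127, and 102 CPM in Trpc1-/- replicates 1 to 3. The WT samples lay close together, and the highest Trpc1-/- sample was 21.3 CPM below the lowest of them. The means were 160 ± 7.62 CPM (SD, n = 4) and 114 ± 12.7 CPM (SD, n = 3), 28.8% lower, with a logFC of -0.49 (SE 0.10).

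Loxl1, which is best known for the maintenance of elastic fibers, differed less. Its WT samples had 34.9, 38.8, 37.9, and 28.8 CPM, and its Trpc1-/- samples had 29.8, 29.5, and 28.7 CPM. The groups overlapped, because WT replicate 4 lay at the level of the Trpc1-/- samples, which were themselves almost equal. The mean was 35.1 ± 4.53 CPM over the WT group (SD, n = 4) and 29.4 ± 0.569 CPM over the Trpc1-/- group (SD, n = 3), with a logFC of -0.26 (SE 0.11).

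Loxl2, Loxl3, and Loxl4 carry scavenger receptor cysteine-rich domains before the catalytic domain, which Lox and Loxl1 lack. Loxl2, which also cross-links collagen IV of basement membranes, had 85.9, 79.8, 74.3, and 55.8 CPM in WT samples and 51.6, 49.7, and 42.2 CPM in Trpc1-/- samples. No sample crossed between the groups, although WT replicate 4 came within 4.24 CPM of the highest Trpc1-/- sample. The mean was 73.9 ± 13.0 CPM over the WT group (SD, n = 4) and 47.8 ± 4.99 CPM over the Trpc1-/- group (SD, n = 3), a logFC of -0.63 (SE 0.15).

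Loxl3, a secreted relative needed for skeletal development, had 49.7, 47.9, 46.6, and 40.0 CPM in WT samples and 31.9, 38.8, and 29.1 CPM in Trpc1-/- samples. Only 1.2 CPM separated WT replicate 4 from Trpc1-/- replicate 2, the smallest gap among the 6 separated genes. The logFC was -0.47 (SE 0.12), from 46.1 ± 4.24 CPM (SD, n = 4) to 33.3 ± 4.99 CPM (SD, n = 3).

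Loxl4 had the lowest logFC of the family in the fit of all 7 samples. Its WT samples had 23.7, 30.2, 30.2, and 38.6 CPM, and its Trpc1-/- samples had 18.4, 21.0, and 14.7 CPM. WT replicate 4, the lowest WT sample in Loxl1, Loxl2, and Loxl3, was the highest in Loxl4, and WT replicate 1 was the lowest, 2.61 CPM above Trpc1-/- replicate 2. The mean was 30.7 ± 6.14 CPM over the WT group (SD, n = 4) and 18.1 ± 3.18 CPM over the Trpc1-/- group (SD, n = 3), 41.1% lower, with a logFC of -0.77 (SE 0.18). Loxl2 rather than Loxl4 had the lowest value of the family without WT replicate 4 (-0.74 and -0.64), with label numbers in the 1300s alone (-0.79 and -0.58), with the replicate block (-0.75 and -0.64), and with the chondrocyte marker score as a covariate (-0.72 and -0.43) or the osteoblast and osteocyte score (-0.65 and -0.54).

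Of the 10 genes, 3 (Loxl4, Plod1, and Colgalt1) had an entry in the RefSeq promoter table. The promoter of Loxl4 is shown because Loxl4 had the lowest logFC of these 3, and the core of the hypoxia response element was searched because cartilage is poorly oxygenated and several lysyl oxidases are known targets of hypoxia-inducible factors. The stretch is 243 bases before the gene on the minus strand (GRCm38.p6, chr19:42612814-42613056), with GCGTG, read as CACGC on the strand printed, in capitals.
Loxl4 promoter: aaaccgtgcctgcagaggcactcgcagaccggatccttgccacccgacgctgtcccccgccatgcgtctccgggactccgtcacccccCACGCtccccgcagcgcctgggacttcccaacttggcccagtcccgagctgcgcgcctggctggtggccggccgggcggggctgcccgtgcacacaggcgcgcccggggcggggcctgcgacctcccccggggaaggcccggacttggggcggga
On both strands it held GCGTG once and ACGTG 0 times. The 2 motifs share the letters CGTG and cannot start at the same base of a strand. Over 32851 promoter windows of 250 bases, 28.2% held GCGTG, 16.6% held ACGTG, and 38.6% held either, so a match of this kind is common and is given as a description only.

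Per kilobase of exon, the 5 lysyl oxidases together had 76.8, 77.9, 73.6, and 71.7 CPM per kb in WT samples and 53.3, 58.2, and 47.7 CPM per kb in Trpc1-/- samples. The summed level therefore did not overlap between the groups (75.0 ± 2.89 in the 4 WT and 53.0 ± 5.27 in the 3 Trpc1-/- samples, mean ± SD). The make-up of the family moved little. Lox contributed 44.6 ± 2.73% of the sum over the WT group (SD, n = 4) and 44.8 ± 0.927% over the Trpc1-/- group (SD, n = 3). Loxl4 contributed 9.76 ± 2.28% in WT and 8.04 ± 0.647% in Trpc1-/- samples, and these groups overlapped because WT replicate 1 was at 7.31% and WT replicate 4 at 12.8%. The shares of Loxl1 (14.2% in WT and 16.9% in Trpc1-/- samples), Loxl2 (18.2% and 16.7%), and Loxl3 (13.3% and 13.6%) overlapped as well.

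**Figure D2:**
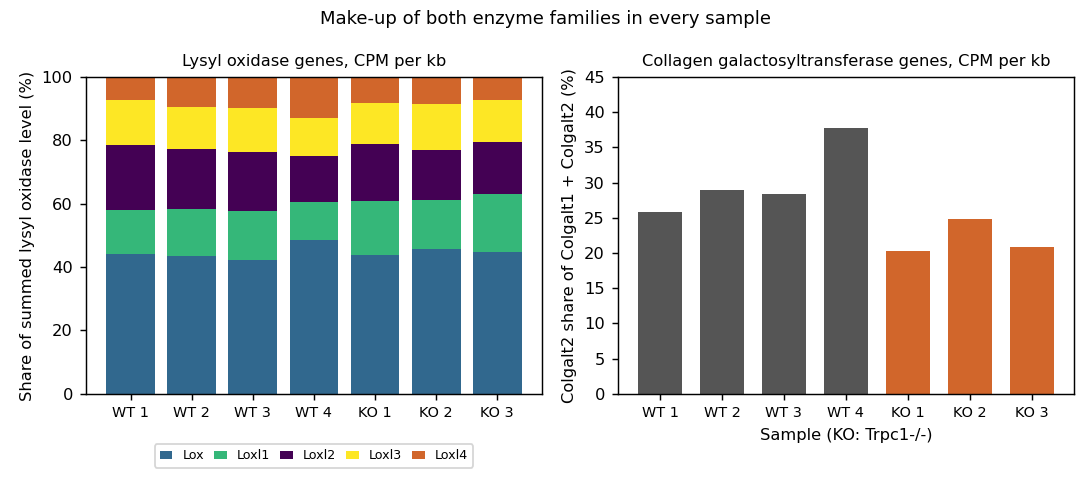
Left, share (%) of each lysyl oxidase gene in the summed CPM per kb of the 5 genes, as stacked bars for the 4 WT and 3 Trpc1-/- (KO) samples. Right, share (%) of Colgalt2 in the summed CPM per kb of Colgalt1 and Colgalt2 in the same samples; Lox takes between 42.2% and 48.5% of its family everywhere, while the Colgalt2 share is 25.9% or more in each WT sample and 24.9% or less in each Trpc1-/- sample.

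The 3 remaining hydroxylases differed in size of change. Plod1, which hydroxylates lysines within the collagen helix, had 51.8, 51.7, 49.1, and 41.1 CPM in WT samples and 41.3, 43.7, and 38.4 CPM in Trpc1-/- samples. WT replicate 4 lay below 2 of the 3 Trpc1-/- samples, so the groups overlapped, with a logFC of -0.24 (SE 0.10) from 48.4 ± 5.06 CPM (SD, n = 4) to 41.1 ± 2.67 CPM (SD, n = 3).

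Plod2, which hydroxylates the telopeptide lysines at the chain ends that enter hydroxylysine-derived cross-links, had 162, 189, 188, and 155 CPM in WT samples and 129, 175, and 129 CPM in Trpc1-/- samples. Trpc1-/- replicate 2 lay inside the WT range, and the other two were below it. The logFC was -0.26 (SE 0.14), from 173 ± 17.7 CPM (SD, n = 4) to 145 ± 26.6 CPM (SD, n = 3), and it was -0.43 without Trpc1-/- replicate 2. Plod2 (chr9:92542223-92608428, GRCm38) lies 3.1 Mb from Trpc1 on the same chromosome, and Loxl1 lies 37.4 Mb away. Whether the Trpc1-/- mice carry other alleles around the deleted gene was not tested.

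P3h2, a prolyl 3-hydroxylase of collagen, had the tightest WT samples of the 10. They had 19.3, 18.8, 17.8, and 18.0 CPM, and the Trpc1-/- samples had 13.5, 15.3, and 12.4 CPM. The coefficient of variation was 3.76% in WT, and the highest Trpc1-/- sample was 2.54 CPM below the lowest WT sample. The mean was 18.5 ± 0.696 CPM over the WT group (SD, n = 4) and 13.7 ± 1.47 CPM over the Trpc1-/- group (SD, n = 3), with a logFC of -0.43 (SE 0.09).

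The 2 collagen galactosyltransferases differed from each other. Colgalt1, the broadly expressed enzyme, had 88.4, 84.9, 85.9, and 79.6 CPM in WT samples and 76.8, 82.5, and 79.6 CPM in Trpc1-/- samples. The groups overlapped, and its logFC of -0.09 (SE 0.07) was the nearest to 0 of the 10. Colgalt2 had 30.3, 34.1, 33.5, and 47.2 CPM in WT samples and 19.2, 26.8, and 20.5 CPM in Trpc1-/- samples. These groups did not overlap, with a gap of 3.53 CPM, and the mean went from 36.3 ± 7.47 CPM (SD, n = 4) to 22.2 ± 4.06 CPM (SD, n = 3), a logFC of -0.71 (SE 0.18).

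Within the pair, measured per kilobase, Colgalt2 made up 25.9%, 29.0%, 28.4%, and 37.7% of the sum of both genes in WT samples and 20.3%, 24.9%, and 20.8% in Trpc1-/- samples. The share was lower in each of the 3 Trpc1-/- samples than in any WT sample, though Trpc1-/- replicate 2 and WT replicate 1 were close. Between Plod1 and Plod2, in contrast, the Plod2 share was 81.8 ± 1.41% over the WT group (SD, n = 4) and 81.3 ± 1.91% over the Trpc1-/- group (SD, n = 3), and the groups overlapped. These shares do not depend on the scaling between libraries.

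Compared per kilobase of exon over all 7 samples, Plod2 (29.9 CPM per kb) and Lox (29.3) had the highest levels, followed by Colgalt1 (19.1), Loxl2 (11.6), Loxl1 (9.90), Loxl3 (8.81), Colgalt2 (7.12), Plod1 (6.69), Loxl4 (6.00), and P3h2 (4.42). Of these neighbours, only Lox and Colgalt1, and then Colgalt1 and Loxl2, differed beyond their spread over the samples. Plod2 exceeded Lox in 5 of the 7 samples. From Loxl2 downward, the range of each gene overlapped with that of the next, and the order was the same when libraries were scaled by their size alone. The order also pools groups that differ. By the means of the WT samples alone Lox (33.4) stood above Plod2 (32.2), Loxl2 (13.7) above Loxl1 (10.6), and Colgalt2 (8.54) and Loxl4 (7.28) above Plod1 (7.16). The ranges of the WT samples overlapped in each of these pairs. Loxl4 exceeded Plod1 only in WT replicate 4 (9.17 against 6.07). By the means of the Trpc1-/- samples alone Plod2 (26.8) stood above Lox (23.8), Loxl1 (8.91) and Loxl2 (8.85) were nearly equal, and Plod1 (6.08) stood above Colgalt2 (5.22) and Loxl4 (4.29). Of these pairs, only Plod1 and Loxl4 had ranges that did not overlap.

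Within a group, samples tended to deviate in the same direction across these genes. Trpc1-/- replicate 2 lay above the Trpc1-/- mean in 10 of the 10 genes and replicate 3 in 0 of the 10, and replicate 2 was the highest Trpc1-/- sample in all genes but Loxl1 and Loxl2. Among WT samples, replicate 4 lay above the WT mean in only 3 of the 10 genes, whereas replicates 1, 2, and 3 did so in 7, 8, and 7. Over the 45 pairs of genes, the correlation of deviations from the group means over the 7 samples had a median of 0.53, was above 0 in 34 pairs, and ran from -0.67 (Loxl2 with Colgalt2) to 0.95 (Loxl2 with Plod1). Loxl4 and Colgalt2 deviated together (0.84), and both were highest in WT replicate 4. These counts and correlations are descriptions, because the points share libraries and tissue make-up. They were not computed over all tested genes, so nothing particular to the 10 genes is read from them. The labels carry a number in each library name whose meaning they do not state, in the 1300s for WT replicates 1 and 2 and the Trpc1-/- samples and in the 1700s for WT replicates 3 and 4. With the 1300s alone, 2 against 3 samples, 9 of the 10 genes and 17.8% of all tested genes had every Trpc1-/- sample below every WT sample. The mean levels of Loxl2 in WT were 82.8 CPM (1300s) and 65.1 CPM (1700s), against 32.2 and 40.3 CPM for Colgalt2.

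Several of the 10 genes overlap a gene on the opposite strand. The overlaps in exon bases were largest for P3h2 with Gm4524 (1055), Loxl3 with Htra2 (535), and Colgalt1 with Unc13a (495). The levels of these partners were not examined. Loxl2 (chr14:69609068-69695834, plus strand, GRCm38) is the case described here. This case was picked after its values were seen. Gm27177 (ENSMUSG00000098975, chr14:69582164-69683286) is annotated antisense to Loxl2 and shares 57 bases with its coding exon 3 and 244 bases with its coding exon 10, the exon where the copper-site stretch printed above begins. For Gm27177 the WT samples held 9, 1068, 1392, and 491 counts, whereas the Trpc1-/- samples held 8, 4, and 2. Gm37513 (ENSMUSG00000104371, chr14:69613779-69616046), an unclassified transcript inside Loxl2 on the same opposite strand that shares no exon bases with it, had 0, 60, 79, and 23 counts in WT samples and 0 in each Trpc1-/- sample, below the floor of 3 counts.

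Both opposite-strand genes were thus detected in WT replicates 2, 3, and 4 and were at or near the floor in WT replicate 1 and in all 3 Trpc1-/- samples. The split does not follow genotype alone, nor the series of label numbers, since WT replicate 2 has one in the 1300s. Loxl2 itself did not follow it, with 85.9 CPM in WT replicate 1, the highest of all samples. The kit keeps the strand and the authors aligned the reads with it, while a strand setting for counting is not given in the sources used here. This limit applies to each of the overlaps named. Gm38391, which overlaps Plod2 on the opposite strand by 346 exon bases, had 3.81, 3.18, 2.94, and 2.87 CPM in WT samples and 2.34, 2.30, and 1.61 CPM in Trpc1-/- samples.

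**Figure D3:**
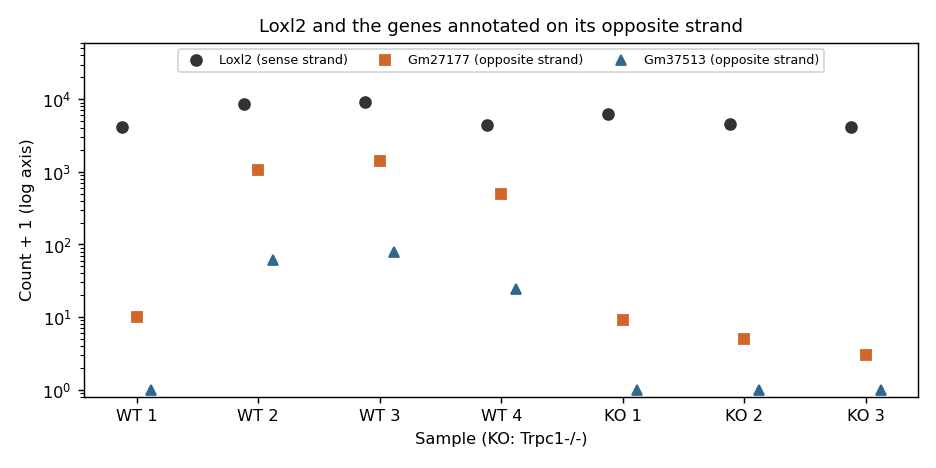
Counts plus 1 (log axis) of Loxl2 and of the 2 genes annotated on its opposite strand, Gm27177 and Gm37513, in the 4 WT and 3 Trpc1-/- (KO) samples. Gm27177 has 491 to 1392 counts in WT replicates 2 to 4 and 9 or fewer in the other samples, while Loxl2 has 4083 to 9147 counts.

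Other genes of collagen maturation were described with the same fit. Of 29 listed genes (prolyl hydroxylases, chaperones, export factors, and the proteases that trim procollagen), 28 were tested and Tll2 did not pass the filter. Their median logFC was -0.24, with 25 lower and 3 higher, against 51.9% lower over all genes. EdgeR called 0 of them, and its smallest adjusted p was 0.381. At an unadjusted p under 0.05, 7 were lower (25%, against 5.49% of all genes) and 0 higher. DESeq2 called 1 of the 28 lower, against 0.828% of all genes.

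That gene was P4ha2, an alpha subunit of the prolyl 4-hydroxylase that stabilizes the collagen helix, which had 26.2, 25.0, 26.5, and 21.2 CPM in WT samples and 17.4, 18.8, and 15.0 CPM in Trpc1-/- samples. The groups did not overlap. Its logFC was -0.54 (SE 0.11), and its adjusted p was 0.00712 by DESeq2 and 0.381 by edgeR. Bmp1, the protease that removes the C-propeptide of procollagen and also activates the Lox proenzyme, had 134, 106, 104, and 94.9 CPM in WT samples and 76.0, 92.1, and 71.2 CPM in Trpc1-/- samples. Its groups were separated too, with a logFC of -0.46 (SE 0.14) and an adjusted p of 0.420 by edgeR. Slc23a2, which carries ascorbate, the cofactor of the hydroxylases, into cells, was at 33.6 ± 2.31 CPM over the WT group (SD, n = 4) and 28.8 ± 1.33 CPM over the Trpc1-/- group (SD, n = 3), with a logFC of -0.22 (SE 0.08) and an adjusted p of 0.448 by edgeR. The highest logFC of the list was that of Mia2, an export factor, at 0.09 (SE 0.08).

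**Figure D4:**
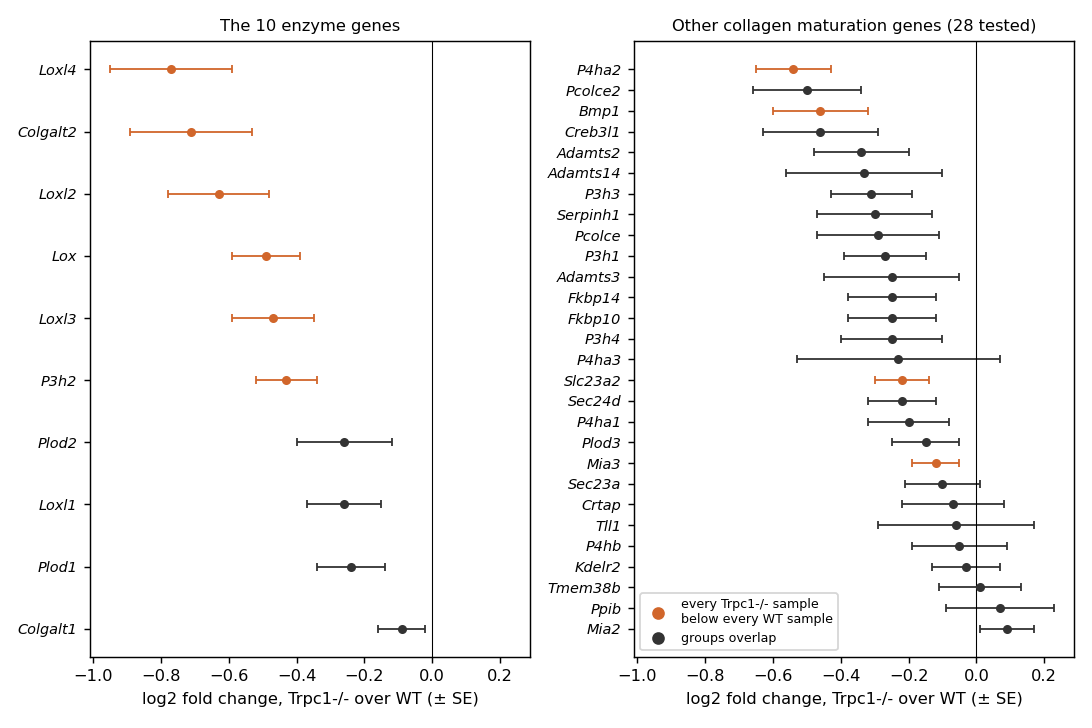
LogFC (Trpc1-/- over WT) from edgeR, with bars of 1 SE, for the 10 enzyme genes (left) and for the 28 tested genes of the collagen maturation list (right), ordered by value. Orange marks genes with every Trpc1-/- sample below every WT sample, which held for 6.42% of all tested genes. Of the 10 enzyme genes, chosen by this contrast, 6 are orange, and of the 28 listed genes 4 are. The lowest value on the right is -0.54 in P4ha2.

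Among 12 partners of the lysyl oxidases (copper carriers, and matrix proteins that bind Lox or its substrates), 11 were lower and 1 higher (51.9% of all genes were lower), with a median logFC of -0.17. EdgeR and DESeq2 called 0 of them, and by edgeR 1 was lower at an unadjusted p under 0.05 (8.33%, near the 5.49% of all genes). That gene was Efemp2 (fibulin-4), which brings Lox to elastin, with 21.8 ± 1.80 CPM over the WT group (SD, n = 4) and 17.8 ± 1.95 CPM over the Trpc1-/- group (SD, n = 3), a logFC of -0.29 (SE 0.10), and an adjusted p of 0.449 by edgeR. The copper chaperone Atox1 had the highest value, 0.13 (SE 0.25).

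All 19 collagen and elastin genes listed as substrates were lower, against 51.9% of all genes, with a median logFC of -0.45. EdgeR and DESeq2 called 0 of them, and 5 (26.3%, against 5.49% of all genes) were lower at an unadjusted p under 0.05 by edgeR. Col4a1, of basement membranes, was the 1 of the 19 whose groups did not overlap, no larger a share than the 6.42% of all genes. It was at 192 ± 23.3 CPM over the WT group (SD, n = 4) and 152 ± 9.06 CPM over the Trpc1-/- group (SD, n = 3), with a logFC of -0.34 (SE 0.12) and an adjusted p of 0.445 by edgeR. The fibrillar collagens varied widely between the samples of a group. Summed over 8 genes, they had 4010, 3200, 2890, and 2320 CPM per kb in WT samples and 1990, 3110, and 1890 CPM per kb in Trpc1-/- samples, so Trpc1-/- replicate 2 lay within the WT range.

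Set against these substrates within each sample, the lysyl oxidases gave a ratio that did not separate the groups. The log2 ratio of the summed lysyl oxidases to the summed fibrillar collagens was -5.35 ± 0.284 over the WT group (SD, n = 4) and -5.42 ± 0.277 over the Trpc1-/- group (SD, n = 3). The difference of -0.08 was smaller than the spread within either group, and the groups overlapped. That spread came mostly from the collagens, whose sum ran from 2320 to 4010 CPM per kb in WT samples, against 71.7 to 77.9 for the lysyl oxidases. The lowest ratio was that of Trpc1-/- replicate 2 (-5.74). Its collagens lay within the WT range (3110), while its lysyl oxidases lay below every WT sample (58.2). With this spread, the ratio cannot show whether enzymes and collagens moved in step. The ratios to Col2a1 of Loxl4 (difference -0.19), Colgalt2 (-0.138), and P3h2 (0.132) overlapped in the same way. So did those of Lox (-0.04) and Plod2 (0.19) to Col1a1.

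Marker genes of several cell types were lower or higher along with the enzymes, although edgeR called no gene. Over all tested genes 51.9% were lower, and 6.42% were separated downward and 7.15% upward. By edgeR, 5 of 14 chondrocyte and 2 of 9 osteoblast and osteocyte markers had an unadjusted p under 0.05. So did 2 of 7 fibroblast and synovial, 9 of 11 erythroid, and 3 of 5 adipocyte markers. None of the endothelial, neutrophil, osteoclast, or muscle markers did. Over all genes 5.49% did so lower and 4.51% higher. All 14 chondrocyte markers were lower in Trpc1-/- samples (median logFC -0.47), with a summed level of 1080 to 1190 CPM per kb in WT and 655 to 1100 CPM per kb in Trpc1-/- samples. Of these 14, 5 are collagens that also stand in the substrate list. All 9 osteoblast and osteocyte markers were lower (926 to 1930 in WT, 1050 to 1510 in Trpc1-/- samples), as were all 7 fibroblast and synovial markers, whose sums did not overlap (316 to 442 and 283 to 307). The sums of the 6 endothelial markers did not overlap either but lay within a narrow range (39.1 to 40.8 and 37.7 to 39.1). All 11 erythroid markers were higher, with sums of 13700 to 27300 in WT and 31400 to 43800 in Trpc1-/- samples. The sums of the other lists overlapped, with 8 of 8 neutrophil, 6 of 6 muscle, 5 of 5 adipocyte, and 2 of 4 osteoclast markers higher. WT replicate 1 stood apart in the neutrophil sum (6170, against 15800 or more in the other samples). It also had the highest muscle sum (410), but Trpc1-/- replicate 3 came near it (366), and the remaining samples had 21.8 to 198.

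The enzyme genes were refitted with the mean log2 CPM of a marker list as a covariate. With the chondrocyte score, their median logFC was -0.35. Loxl2 was at -0.72, Lox was at -0.38, Loxl4 and Colgalt2 were at -0.43 and -0.35, and Plod2 was at -0.0086. With the osteoblast and osteocyte score, a covariate chosen after seeing the data, the median was -0.39 and Plod2 was at -0.06. With the erythroid score, which separates the groups, the median was -0.25, Loxl4 was at -0.79, Loxl1 at -0.41, Colgalt2 at -0.43, Lox at -0.27, Loxl3 and P3h2 at -0.23, and Colgalt1 at 0.0041. Plod2 was the nearest to 0 of the 10 with the chondrocyte score (SE 0.153) and the osteoblast and osteocyte score (SE 0.125). Colgalt1 was close to it, at -0.08 with each. Loxl2 was at -0.54 (SE 0.31) with the erythroid, -0.72 (SE 0.222) with the chondrocyte, and -0.65 (SE 0.196) with the osteoblast and osteocyte score. Its SE without a score was 0.153. Loxl4 had a SE of 0.378 with the erythroid score. Whether tissue make-up underlies the differences was not tested.

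The genes whose deviations from the group means followed those of an enzyme most closely over the 7 samples were, for Lox, H2-Q5 (r = 0.985), Dffa (0.979), Gm15612, Reep6, and Lclat1. For Loxl4 they were Fam72a (0.988), Tln1 (0.985), Nrg1 (0.984), Tmem127, and Usp9x. For Colgalt2 they were Mtmr9 (0.991), Pik3r4 (0.990), Lig3, Mgrn1, and Ppm1h, and for P3h2 they were Bace1 (0.998), Zfp606 (0.989), Myo6, and Tspyl2. With 7 points that share libraries, between 48 and 103 genes exceeded 0.9 for each of the 4, so these lists describe the samples and are not a measure of a shared function.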

How the data were processed

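From stranded, rRNA-depleted, paired-end libraries, the authors trimmed reads with cutadapt 2.5, aligned them to GRCm38 with HISAT2 2.1.0, and made estimated counts per gene from StringTie 2.0.3 coverage. The deposited estimated counts were whole numbers and not normalized. The annotation release is not given in the sources used here. Positions and exon lengths came from GENCODE M21, which held 55141 of the 55401 gene IDs. Replicates are separate pools of mice, grouped by their labels. Genes over 1 CPM in at least 2 samples were TMM-normalized and tested for genotype alone by edgeR 4.0.16 (quasi-likelihood, R 4.3.3), at an adjusted p of 0.05 (Benjamini-Hochberg over all tested genes, common dispersion 0.0424). Alternatives were DESeq2 1.42.0, limma-voom (limma 3.58.1), other scalings and filters, the replicate block, the series of label numbers (1300s or 1700s), marker scores (mean log2 CPM, prior count 1), and fits that omit 1 sample each. The edgeR, limma-voom, and DESeq2 fits of genotype alone were first tested on simulated counts, with changes larger than those of the 10 genes. Fits with other scalings, filters, covariates, or fewer samples were not tested in this way. Named genes are the 10 members, those of each list called by either tool, then separated genes with an unadjusted p under 0.05, the highest logFC of each list, marker lists with separated sums, and up to 5 correlates each of Lox, Loxl4, Colgalt2, and P3h2, of which 1 is not reported here. Trpc1 is named as the targeted gene. Cases outside this rule include Tll2, Col2a1, Col1a1, and the genes on the opposite strand of members, Gm38391 among them. The members and lists were chosen with earlier results of these data known. No protein sequence was shown. Floors cover counting error only.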

Additional observations from a re-analysis of the deposited data

How the results depend on the processing

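All 10 enzyme genes had a logFC below 0 in each of the 17 alternatives without a marker score. With 1 exception the same held with the 3 marker scores: Colgalt1 was at 0.0041 with the erythroid score, where the median of the 10 was -0.25 in place of -0.45. With each sample left out in turn, that median lay between -0.55 (without Trpc1-/- replicate 2) and -0.37 (without Trpc1-/- replicate 3). The median of the collagen maturation list was -0.09 with the chondrocyte score, -0.09 with the osteoblast and osteocyte score, and -0.29 to -0.14 with 1 sample left out, the last without Trpc1-/- replicate 3. The number of genes called over the whole table, 0 by edgeR, was 294 by DESeq2, 1 by limma-voom, 1 with the chondrocyte score, and 0 to 52 with 1 sample left out. The 52 came without WT replicate 1 and held 0 of the 10 enzyme genes.

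Of the 10, DESeq2 called 6 lower, and of all 16429 tested genes it called 136 lower (0.828%). With a sample left out it called 1 to 8 of the 10 lower, and 14 to 372 genes in all. With the label numbers in the 1300s alone it called 2 of the 10 lower (Lox and Loxl2), and 129 of 16203 genes in all. In those samples 9 of the 10 were separated downward, as were 17.8% of all tested genes. With a sample left out, 6 to 9 were separated, 9 without WT replicate 4, where 11% of all genes were. The replicate numbers did not pair the samples: same-numbered samples had correlations of -0.348, -0.205, and -0.044, and 0 WT replicates correlated best with their own number. With the replicate block, fitted on replicates 1 to 3, the count of called genes was 0 by edgeR (972 with an unadjusted p under 0.05). The medians were then -0.46 for the 10 and -0.26 for the maturation list. DESeq2 with the block called 1 of the 10 lower (Loxl2), and 31 of 16303 genes in all. The cause of these shifts was not tested. Depth did not limit the enzyme genes, whereas Gm27177 and Gm37513 were at or near the floor in 4 samples.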
